A study of Mus musculus with 8 samples.

Results

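Leukemic bone marrow carrying AML1-ETO together with Meis2 (AE+Meis2, n = 3 libraries) was compared with leukemic marrow carrying AML1-ETO9a alone (AE9a, n = 2 libraries). The genes described are protein-coding genes that reached 1 FPKM in 2 or more of these 5 libraries. FPKM expresses fragments relative to the length of the transcript and the depth of the library. Small RNA genes were left out, as were genes with a listed value of 0 throughout either group. This gave 11250 members of 23997 genes in the table, and 9783 of them reached the minimum in all 5 libraries while 451 reached it in exactly 2.

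All mice were C57BL/6. Donors were injected with 5-fluorouracil (5FU), and their marrow was taken 4 days later and cultured with IL3, IL6 and SCF. It was transduced and transplanted 48 hours later into lethally irradiated mice, and RNA was extracted from the marrow of recipients once they had succumbed to leukemia. The median latency was 171 days in AE+Meis2 and 138 days in AE9a. Another group, AML1-ETO9a with Meis2 (AE9a+Meis2, n = 3, median latency 102 days), was prepared in the same way and is given beside the members. AE+Meis2 and AE9a differ in the form of the fusion and in the presence of Meis2, and these cannot be told apart in this comparison. By its label AE9a+Meis2 differs from each of them by 1 of these features. Its Meis2 level, however, was far above that of AE+Meis2 (means of 834 and 44.3 FPKM). The labels do not say which donor, transduction or sequencing batch a library came from, so a p-value is set by how far these libraries scatter, and that scatter may be partly technical.

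AML1-ETO is the product of a translocation that joins the DNA-binding domain of RUNX1, a transcription factor needed to form blood stem cells, to nearly all of the corepressor RUNX1T1 (also called ETO). AML1-ETO9a is a splice form that lacks the carboxy-terminal part of ETO, including a domain that contacts corepressors, and it causes leukemia in mice more readily than the full-length fusion does alone. Meis2 is a TALE-class homeobox transcription factor that binds DNA with PBX proteins. Interferons are secreted proteins that signal through cell-surface receptors, Janus kinases and transcription factors, IRF9 among them, to a large set of antiviral genes, many of which carry an interferon-stimulated response element in the promoter.

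The libraries were not equally deep, and 1 went against its label in Meis2 and Runx1t1. Relative depth, estimated from the steps between low values, ran from 12.3% in AE9a replicate 1 to 100% in AE9a+Meis2 replicate 2, and absolute depth is unknown. Small RNAs held between 8.66% and 37.9% of the summed FPKM of a library. Of 1543 genes such as olfactory receptors, from families silent in marrow, 72.1% were above 0 in AE9a replicate 1 and 84.1% in AE9a+Meis2 replicate 3, against 3.37% to 6.61% in the other 6 libraries. S100a8 alone was 12.0% of the summed FPKM of AE+Meis2 replicate 3. Sex-linked genes differed with the groups as well. Eif2s3y, on the Y chromosome, read 158, 176 and 7.06 FPKM in AE+Meis2 and at most 0.574 in the other 5 libraries. Xist, the RNA that silences an X chromosome, read 1.93, 5.79 and 99.0 in AE+Meis2 and 118 and 206 in AE9a. Whether sex, depth or the spread of low-level signal plays a part in the results below was not tested.

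The transduced genes were examined first, in every library. Meis2 stood at 13.1, 38.2 and 81.5 FPKM in AE+Meis2, at 621, 604 and 1277 in AE9a+Meis2, and at 6.99 and 13.2 in AE9a. The library labelled AE+Meis2 replicate 1 thus overlapped AE9a in Meis2, and the difference in log2(FPKM + 1) between the groups was 1.75 ± 0.72 (SE, limma adjusted p = 0.828). Runx1t1, whose sequence makes up the ETO part of both fusions, was at 21.6 FPKM in that same library, against 223 and 218 in replicates 2 and 3. In AE9a it was at 26.8 and 23.4, and in AE9a+Meis2 at 18.0, 11.2 and 10.3. Because AML1-ETO9a lacks part of ETO, the FPKM of this gene do not compare the amounts of the 2 fusions directly. The log2 difference of Runx1t1 was 1.99 ± 0.94 (limma adjusted p = 0.882) with all libraries and 3.09 without the library labelled AE+Meis2 replicate 1. In Meis2 and Runx1t1 this library was at the level of AE9a and below the other libraries of its group. Other genes went both ways. Eif2s3y was at 158 FPKM in it and the microRNA gene Mir6386 at 114, against at most 0.574 and a listed 0 in AE9a. Car1 was at 599 in it, against 3.44 and 46.9 in replicates 2 and 3 and 532 and 866 in AE9a. Whether its label is right was not tested. Runx1 was lower in AE+Meis2, at 23.1, 42.0 and 31.6 FPKM against 42.9 and 71.1, with no overlap and a log2 difference of -0.80 ± 0.34 (limma adjusted p = 0.830). A transduced copy and the gene of the mouse cannot be separated in these values. The counts over all members, the interferon and immune lists and the cell type lists are therefore also given without the library labelled AE+Meis2 replicate 1, without AE9a replicate 1 and without both. The median log2 difference over all members was 0.08, 0.02 and 0.04 in these 3 settings.

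Across the members, genes of the interferon response were higher in AE+Meis2 as a list. Only Smpx, which was lower, passed limma's test after Benjamini-Hochberg adjustment over all 12565 genes tested: 0 members were called higher (0.0%) and 1 lower (0.00889%). At an unadjusted p under 0.05, 342 members were higher (3.04%) and 343 lower (3.05%). In 1180 members (10.5%) every AE+Meis2 library was above both AE9a libraries, and in 927 (8.24%) every one was below. The median log2 difference over the members was 0.07, and 57.9% of differences were above 0. When small RNAs were removed and the libraries rescaled, the median moved to -0.28 and the counts at an unadjusted p under 0.05 became 110 higher and 673 lower, so that 14% instead of 49.9% of these members were higher. The balance of higher and lower members thus depends on the scaling, and differences near the median are not read as directions here. Counts also depended on single libraries: 504 higher and 503 lower without the library labelled AE+Meis2 replicate 1, 113 and 251 without AE9a replicate 1, and 160 and 392 without both.

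**Figure D1:**
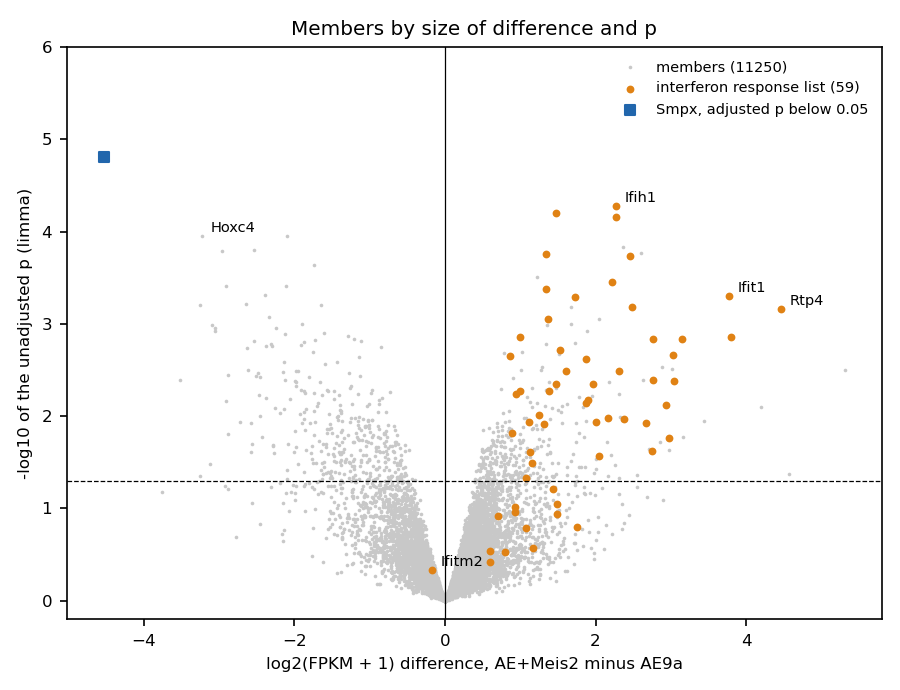
Each point is a member, by its log2(FPKM + 1) difference (x axis, AE+Meis2 minus AE9a) and the -log10 of its unadjusted limma p (y axis), with the 59 members of the interferon list in orange and an unadjusted p of 0.05 as the dashed line. The interferon genes lie to the right of 0 except Ifitm2, and Smpx, the 1 member past the adjusted threshold, lies at the far left.

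The interferon list was higher in AE+Meis2 almost throughout. Of 61 listed genes that the table holds, 59 were members, and 58 of them had a higher mean log2 level in AE+Meis2, with a median log2 difference of 1.53 against 0.07 over all members. At an unadjusted p under 0.05, 46 of 59 were higher and 0 lower, where 3.04% of all members were higher. In 48 of 59 every AE+Meis2 library was above both AE9a libraries, where 10.5% of all members were. No gene of the list passed the adjusted threshold, and the smallest limma adjusted p was 0.108. The median FPKM of the list was 44.2, 25.5 and 33.3 in AE+Meis2 and 11.4 and 5.71 in AE9a, so the groups did not overlap. The 1 member on the other side was Ifitm2, which restricts virus entry, with a log2 difference of -0.17 ± 0.22 (limma adjusted p = 0.962).

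The promoters of these genes were searched on both strands for the core of the interferon-stimulated response element, GAAA followed by 2 bases of any kind and GAAA again, which reads TTTC, 2 bases and TTTC on the other strand. It was found in 25 of the 48 interferon members that have a promoter window in RefSeq (52.1%), against 3.81% of 9153 members with a window and 4.00% of 26746 genes in the promoter table. Among the 15 leading higher genes described below, 6 of 10 with a window held it (60%), and among the 15 leading lower genes 2 of 14 (14.3%). The RUNX motif, TGTGGT or TGCGGT on either strand, was in 22.9% of the interferon members and 24.9% of all members, and the MEIS motif TGACAG was in 14.6% and 19.8%. A match describes these letters in this window and does not show binding.

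To show the element in place, the 250 bases before the start site (RefSeq, GRCm38.p6) are printed for the leading higher genes with a match before the start, and for Smpx, the 1 called gene, which had none. Ifit1 lies at chr19:34640639-34640888 on the plus strand, Igtp at chr11:58199306-58199555 on the plus strand, Trim30a at chr7:104465194-104465443 and Trim30d at chr7:104507850-104508099, both on the minus strand, and Smpx at chrX:157698723-157698972 on the plus strand. Capitals mark the matches, which begin 104 and 85 bases before the start in Ifit1, 34 in Igtp, 36 in Trim30a and 41 in Trim30d.
Ifit1: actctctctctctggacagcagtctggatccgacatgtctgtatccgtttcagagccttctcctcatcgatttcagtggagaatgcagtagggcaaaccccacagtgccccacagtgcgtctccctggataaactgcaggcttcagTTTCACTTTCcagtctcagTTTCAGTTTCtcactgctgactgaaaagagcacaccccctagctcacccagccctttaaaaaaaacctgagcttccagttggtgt
Igtp: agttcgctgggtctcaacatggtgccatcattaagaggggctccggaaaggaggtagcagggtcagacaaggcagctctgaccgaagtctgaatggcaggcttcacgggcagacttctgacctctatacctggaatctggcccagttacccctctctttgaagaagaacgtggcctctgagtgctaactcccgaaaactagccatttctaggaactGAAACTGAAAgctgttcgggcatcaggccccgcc
Trim30a: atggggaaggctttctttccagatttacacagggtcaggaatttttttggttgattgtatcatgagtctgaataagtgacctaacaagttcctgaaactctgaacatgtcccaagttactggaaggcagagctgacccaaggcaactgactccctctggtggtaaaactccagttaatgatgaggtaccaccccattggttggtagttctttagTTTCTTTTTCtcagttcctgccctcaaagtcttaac
Trim30d: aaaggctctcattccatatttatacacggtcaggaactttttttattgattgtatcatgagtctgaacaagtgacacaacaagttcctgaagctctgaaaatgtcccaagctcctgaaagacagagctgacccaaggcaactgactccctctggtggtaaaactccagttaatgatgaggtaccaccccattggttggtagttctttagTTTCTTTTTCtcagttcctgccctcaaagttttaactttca
Smpx: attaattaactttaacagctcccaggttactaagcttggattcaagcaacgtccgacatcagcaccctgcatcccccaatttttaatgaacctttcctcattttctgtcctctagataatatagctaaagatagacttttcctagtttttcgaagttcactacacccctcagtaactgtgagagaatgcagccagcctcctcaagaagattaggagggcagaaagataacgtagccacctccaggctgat

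Ifit1 thus held a pair of matches and each of the other higher genes 1, and the matches of the Trim30 paralogs had the same letters.

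The interferon ligands themselves were hardly seen. Of 21 interferon genes in the table, 3 were listed at 0 in all 8 libraries and 2 reached 1 FPKM in any library, with a highest value of 1.62. Those values, of Ifna14 and Ifng, came from AE9a replicate 1 and AE9a+Meis2 replicate 3, the libraries in which silent families were widely above 0. The receptors and Janus kinases, chosen after their values were seen (Ifnar1, Ifnar2, Ifngr1, Ifngr2, Jak1, Jak2 and Tyk2), had log2 differences between -0.16 and 0.41 and overlapping libraries, with unadjusted limma p of at least 0.341. Socs1, an inhibitor of Janus kinases that is itself interferon-induced and that was also chosen after its values were seen, went the other way from the targets: 2.77, 3.36 and 1.54 FPKM in AE+Meis2 against 5.38 and 7.66, with a log2 difference of -1.10 ± 0.36 (limma adjusted p = 0.711).

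Among transcription factors of the interferon response, Irf7, which drives interferon gene transcription, and Irf9, the DNA-binding part of the complex that activates interferon targets, were both chosen after their values were seen. Irf7 was at 135, 77.5 and 58.6 FPKM against 14.8 and 4.96, and Irf9 at 52.8, 124 and 61.7 against 25.3 and 22.2. In both genes the AE+Meis2 libraries lay above both AE9a libraries. The log2 differences were 3.15 ± 0.63 for Irf7 (limma adjusted p = 0.340) and 1.60 ± 0.37 for Irf9 (limma adjusted p = 0.450), neither past the adjusted threshold.

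Sensors of viral nucleic acid showed the same order. Ifih1 (MDA5), a cytoplasmic sensor of long double-stranded RNA at chr2:62595618-62646255, measured 21.2, 26.8 and 16.6 FPKM in AE+Meis2 and 3.78 and 3.38 in AE9a, a log2 difference of 2.27 ± 0.27 (limma adjusted p = 0.108). Ddx58 (RIG-I), a sensor of RNA ends, was at 36.4, 39.3 and 32.9 against 6.79 and 4.87. Zbp1, which recognises Z-form DNA and RNA, was at 36.4, 24 and 23.2 against 5.99 and 2.63, and Adar, which edits double-stranded RNA, at 31.7, 33.5 and 33.9 against 15.6 and 11.8. Every AE+Meis2 library was above both AE9a libraries in all 4 genes. Their log2 differences were 2.46 ± 0.35 for Ddx58, 2.49 ± 0.44 for Zbp1 and 1.22 ± 0.19 for Adar, with limma adjusted p between 0.138 and 0.261.

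Effector genes with antiviral or regulatory roles followed. Rtp4, a chaperone-like protein with antiviral action, had the largest log2 difference of the 15 leading higher genes, 4.46 ± 0.80 (limma adjusted p = 0.266), from 70.0, 66.6 and 56.3 FPKM in AE+Meis2 and 5.60 and 0.314 in AE9a. Ifit1, which binds viral RNA, was at 63.3, 12.8 and 22.9 against 1.81 and 0.462, a log2 difference of 3.77 ± 0.64 (limma adjusted p = 0.238). The immunity-related GTPase Igtp was at 60.5, 56.8 and 28.6 against 9.40 and 8.95. The tight spread within groups put Parp14 among the smallest p-values: 33.0, 33.5 and 34.4 against 11.9 and 11.0, a log2 difference of 1.48 ± 0.18 (limma adjusted p = 0.108). Parp14 is an ADP-ribosyltransferase, and its neighbour on chromosome 16, the ubiquitin ligase Dtx3l, was at 34.1, 43.1 and 34.3 against 14.6 and 13.2. Trim30a, which restrains inflammatory signalling, was at 63.3, 78.2 and 80.8 against 19.2 and 10.9, and its paralog Trim30d at 8.99, 17.3 and 13.9 against 2.11 and 1.36. The division of shared reads between these near copies is unknown, so their separate values are uncertain. Sp100, a nuclear body protein, was at 114, 122 and 169 against 51.0 and 52.9.

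**Figure D2:**
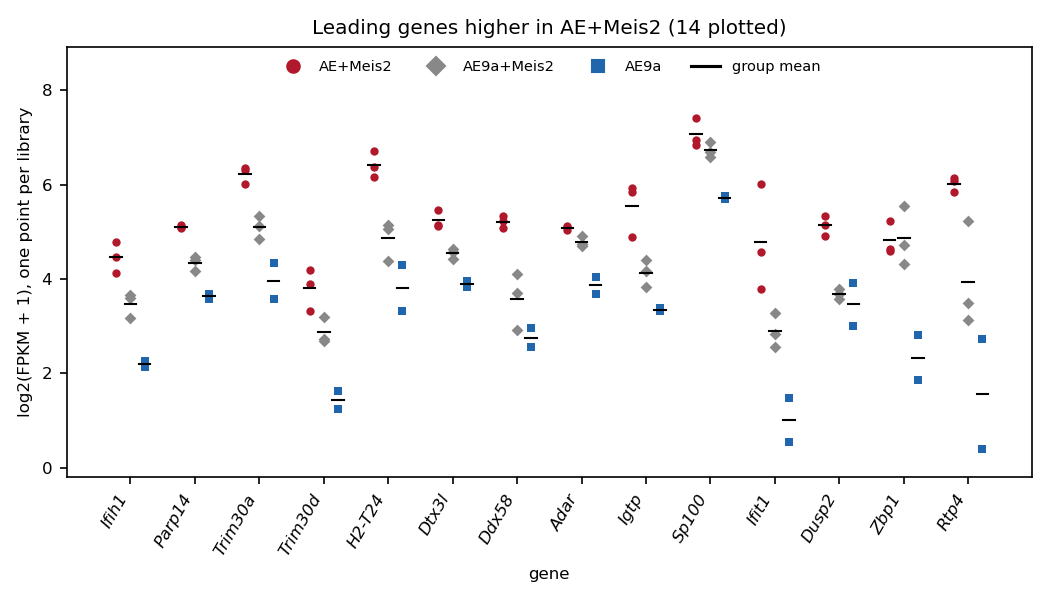
log2(FPKM + 1) of each library (y axis) for 14 of the 15 leading genes higher in AE+Meis2 (x axis), with short lines at the group means. The AE+Meis2 libraries lie above both AE9a libraries for every gene because the rule for these genes required it, and the AE9a+Meis2 mean falls between the others in 13 of the 14. Of all members 26.5% had that rising order, and choosing widely separated groups favours it.

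These 15 genes were chosen for groups that do not overlap, so that separation is no support. None passed the adjusted threshold, with limma adjusted p between 0.108 and 0.266, and 11 of 15 are in the interferon list. The others are Trim30d, Adar, the class I gene H2-T24, and Dusp2, a nuclear phosphatase of MAP kinases that stood at 29.4, 34.6 and 39.4 FPKM against 7.05 and 14.1.

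The library labelled AE+Meis2 replicate 1, which went against its label in Meis2 and Runx1t1, was not low in interferon genes: its list median of 44.2 FPKM was the highest of all 8 libraries. Without it the list median of the log2 difference was 1.48 and 42 of 59 members were higher at an unadjusted p under 0.05. Without AE9a replicate 1 the median was 1.61 with 38 members, and without both it was 1.55 with 31, where AE9a is 1 library whose spread is taken from the other groups. After removal of small RNAs and rescaling, with a median of -0.28 over all members, the list median was 1.28 and 36 members were higher.

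By its label AE9a+Meis2 has the fusion form of AE9a and Meis2 as in AE+Meis2, and its interferon list lay between theirs. Its mean Meis2 level was 834 FPKM against 44.3 in AE+Meis2, so these groups differ in more than the fusion form. The mean FPKM of AE9a+Meis2 was between the group means, in rising order from AE9a, in 52 of 59 interferon members. Over all members 2978 of 11250 (26.5%) had that order. A gene with a lower mean in AE+Meis2 cannot have it. A log2 difference above 0 was seen in 6515 of all members and in 58 of these 59, so the shares are not like for like. The list median FPKM of AE9a+Meis2 was 13.2, 20.9 and 26.8, the highest above the 25.5 of AE+Meis2 replicate 2. The median log2 difference was 0.70 from AE9a+Meis2 to AE+Meis2 and 0.87 from AE9a to AE9a+Meis2. These steps share the AE9a+Meis2 libraries, and the main comparison shares libraries with each of them. Individual genes departed from the midpoint: Zbp1 measured 19.1, 25.3 and 45.5 FPKM with AE9a and Meis2 and overlapped AE+Meis2, while Ddx58 was at 6.59, 12.1 and 16.3, with its lowest library inside the AE9a range.

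Antigen presentation on MHC class I, which displays peptides made by the proteasome to CD8 T cells and which interferons raise, was higher by less. Of 23 members of the class I list 22 were higher and the median log2 difference was 0.74. An unadjusted p under 0.05 was reached by 8 higher members (3.04% over all members), and 17 showed no overlap (10.5% over all members). H2-T24, a non-classical class I gene, was at 70.5, 81.6 and 105 FPKM in AE+Meis2 against 9.05 and 18.8, a log2 difference of 2.60 ± 0.37 (limma adjusted p = 0.138). B2m, the light chain of every class I molecule, was at 2545, 2700.3 and 2161 against 1203 and 859.6. The peptide transporter Tap1 was at 64.0, 62.7 and 55.3 against 44.1 and 25, and tapasin (Tapbp) at 82.9, 73.5 and 76.0 against 46.6 and 43.4. These groups did not overlap. The list median was 0.72 without the library labelled AE+Meis2 replicate 1, 0.72 without AE9a replicate 1 and 0.77 without both. After the rescaling it was 0.38, against -0.28 over all members, and 1 member was higher at an unadjusted p under 0.05. Class I genes are near copies among which reads may be divided. Of 11 MHC class II members only 2 were higher, with a median of -0.25 and none at an unadjusted p under 0.05 in either direction, and the median was between -0.58 and -0.40 when either library or both were left out.

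Chemokine genes were also higher but far less evenly. In the list of inflammatory cytokines and chemokines 22 of 26 members were higher and the median log2 difference was 1.09, with 6 members (23.1%, against 3.04% over all members) at an unadjusted p under 0.05 and 10 (38.5%, against 10.5%) without overlap. Cxcl10, an interferon-induced chemokine for T cells, was at 11.1, 1.61 and 6.74 FPKM against 0.843 and 0.315. Ccl12, which attracts monocytes, was at 14.5, 6.36 and 1.60 against 0 and 0.690. Cxcl2, a neutrophil attractant, was at 16.5, 3.74 and 385 against 0.429 and 0.241, with a log2 difference of 4.58 ± 1.86. Without AE+Meis2 replicate 3 that difference was 2.77. Cxcl3, Ccl2 and Ccl5 were the others at an unadjusted p under 0.05. None of the 6 passed the adjusted threshold. The list median was 1.20 without the library labelled AE+Meis2 replicate 1, 0.69 without AE9a replicate 1 and 0.83 without both, where 2, 2 and 0 members were higher at that p.

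Immediate early genes, which respond within minutes to stimulation or tissue handling, had 23 of 26 members higher, a median log2 difference of 0.91 and 2 higher at an unadjusted p under 0.05 (7.69%, against 3.04% over all members). Egr1, a growth-factor induced zinc finger factor, was at 59.3, 10.1 and 53.5 FPKM against 2.49 and 12.7, so that AE+Meis2 replicate 2 fell inside the AE9a range. Ppp1r15a (GADD34) was at 84.6, 37.1 and 34.4 against 11.9 and 29.0. The list median was 0.93 without the library labelled AE+Meis2 replicate 1, 0.70 without AE9a replicate 1 and 0.48 without both. The median log2 difference from AE9a to AE9a+Meis2 was larger, 1.62. There 8 of 26 members were higher at an unadjusted p under 0.05, where 1.87% of all members were. From AE9a+Meis2 to AE+Meis2 the list median was -0.55. Whether handling of the marrow plays a part was not tested.

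**Figure D3:**
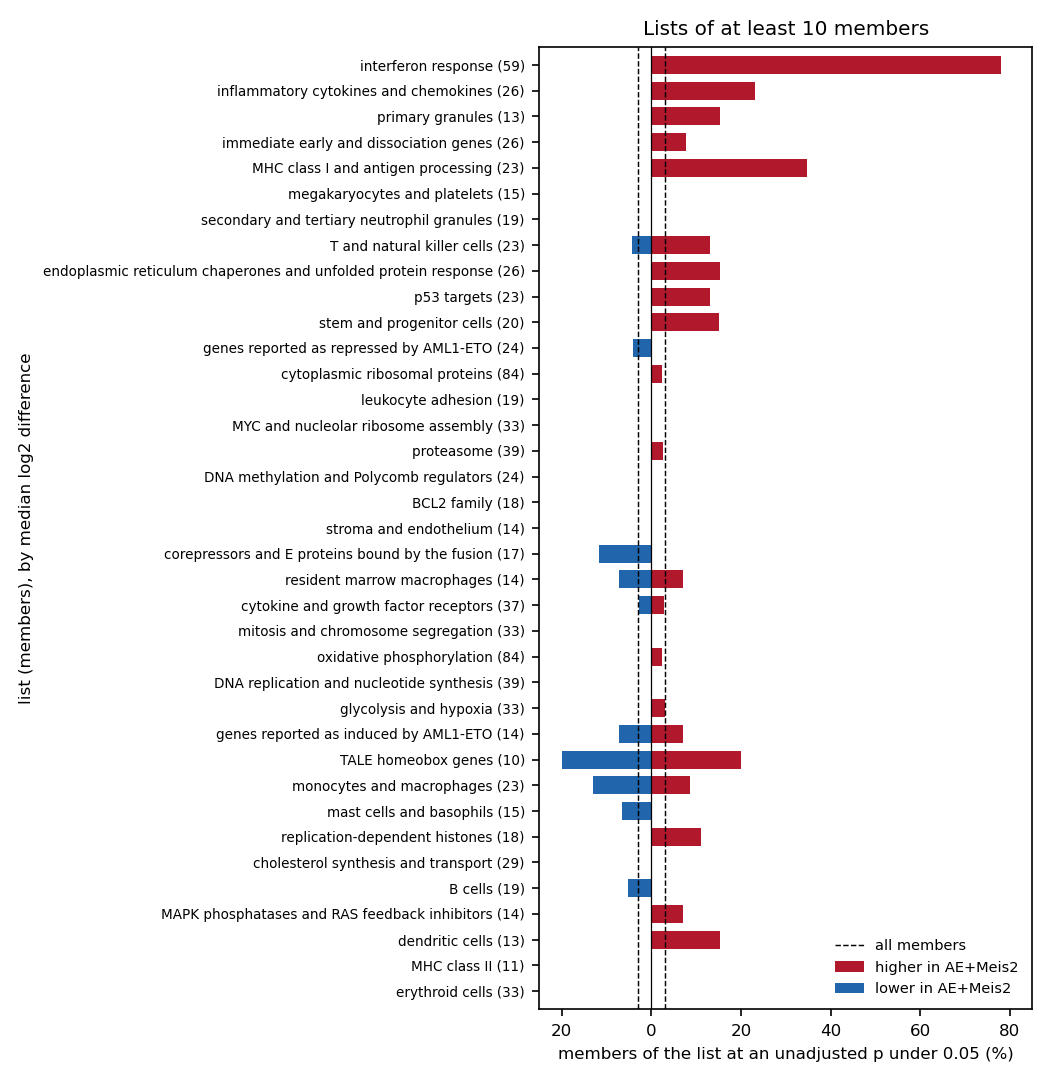
Share of each list's members (x axis, percent) at an unadjusted p under 0.05, higher (right, red) or lower (left, blue) in AE+Meis2, for lists of at least 10 members ordered by median log2 difference, with the shares over all members as dashed lines. The interferon list reaches 78.0% against 3.04% over all members, and the class I list 34.8%.

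Of the members lower in AE+Meis2, Smpx alone fell past the adjusted threshold. Smpx (chrX:157698973-157752591) encodes a small protein of striated muscle. Its FPKM were 0.0980, 0 and 0 in AE+Meis2, 1.5, 0.0178 and 1.51 in AE9a+Meis2, and 29.5 and 17.7 in AE9a. The log2 difference was -4.53 ± 0.45 (limma adjusted p = 0.0489). The call was kept under 3 of 19 alternatives and lost under the other 16, where the adjusted p reached 0.310, though the sign was negative in all. A gene listed at 0 in 2 libraries has no measured fold, and the value of 29.5 comes from AE9a replicate 1, in which low-level genes were widely above 0. Without that library the difference was -4.18.

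The other 14 leading lower genes are a mixed set, none of them past the adjusted threshold, with a mean of at least 5 FPKM in AE9a. Hoxc4, a homeobox gene of the HOXC cluster at chr15:103018097-103036856, was at 0.0479, 0.0591 and 0 FPKM against 6.14 and 12.0, with AE9a+Meis2 at 1.45, 4.65 and 3.99. Its log2 difference was -3.22 ± 0.43 (limma adjusted p = 0.138). Hoxc5, its neighbour in the cluster, had a listed 0 in each AE+Meis2 library and 1.02 and 4.59 in AE9a, and so is no member. Of 39 clustered Hox genes in the table, Hoxc4 and Hoxb4 were the 2 members, and Hoxb4 had a log2 difference of -0.21 ± 0.46.

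Several of the lower genes encode ion channels or calcium-handling proteins. Kcnc4, a voltage-gated potassium channel, was at 0.0458, 0 and 0.0418 FPKM against 4.61 and 12.1, and Kcnj5, an inward rectifier, at 2.76, 1.51 and 0.723 against 17.0 and 8.81. Ncs1, a neuronal calcium sensor, was at 3.65, 0.167 and 0.809 against 13.5 and 21.8. Pde1c, a calmodulin-dependent phosphodiesterase, was at 1.13, 0.0551 and 0.435 against 6.44 and 25.8. No list was fixed for such genes and nothing was tested over them. The AE+Meis2 libraries lay below both AE9a libraries in all 4, as the rule required.

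Tcf23, a basic helix-loop-helix factor, was at 0.475, 0 and 0.0202 FPKM against 7.58 and 8.22. Disc1, a scaffold protein, was at 0.554, 0.663 and 0.248 against 5.78 and 17.2, and the prolyl hydroxylase P4htm at 1.40, 1.83 and 0.482 against 7.91 and 8.76. Colec11, a secreted lectin, was at 0.822, 0.529 and 0.553 against 7.55 and 4.72. Tmem136, Capn6, Acot1, Mgarp and Allc complete the 15. AE9a+Meis2 had a mean between the other groups for all 15, where 13.4% of all members had that falling order from AE9a. The rule chose genes with widely separated groups, which favours a mean between them, so this count is no support. Leaving out the library labelled AE+Meis2 replicate 1 gave log2 differences from -4.58 to -2.18 over the 15 genes, and leaving out AE9a replicate 1 gave -4.18 to -1.81.

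**Figure D4:**
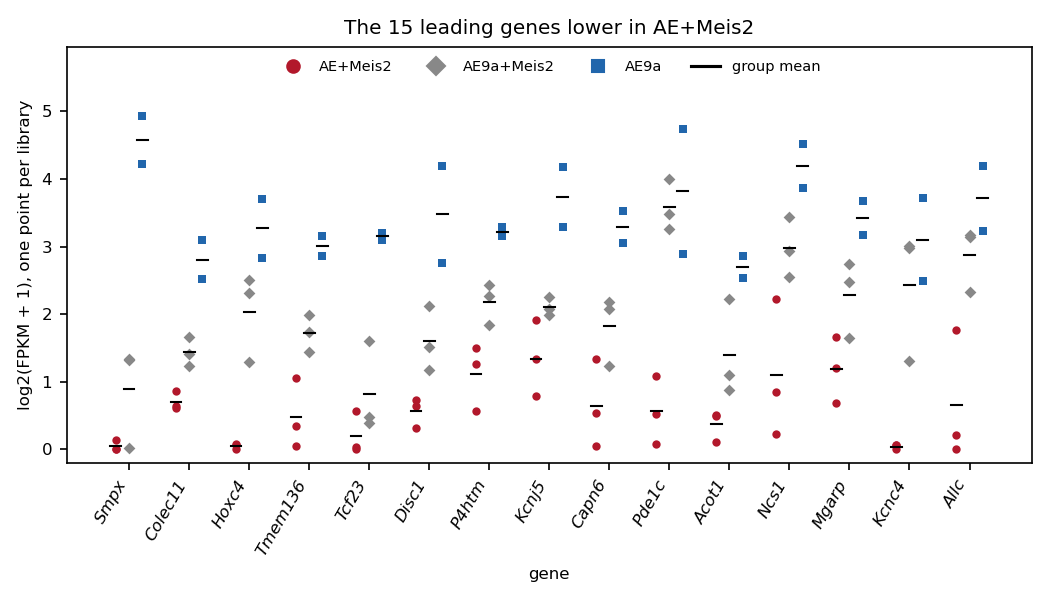
log2(FPKM + 1) of each library (y axis) for the 15 leading genes lower in AE+Meis2 (x axis), with short lines at the group means. The AE+Meis2 libraries are near 0 for Smpx, Hoxc4 and Kcnc4, and the AE9a+Meis2 mean lies between the others for each of the 15 genes. Of all members 13.4% had that falling order, and choosing widely separated groups favours it.

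Among 10 members of the TALE family, 2 were higher and 2 lower at an unadjusted p under 0.05, 20% each way against 3.04% and 3.05% over all members, and Meis2 itself is 1 of the higher. Meis3, a TALE factor like Meis2, was at 0.778, 0.715 and 0.465 FPKM against 3.92 and 4.12, a log2 difference of -1.61 ± 0.32 (limma adjusted p = 0.340). Tgif2, a TALE repressor, was at 2.37, 1.56 and 2.09 against 3.93 and 5.95. Meis1, a known partner of Hox genes in leukemia, went the other way, at 3.67, 1.61 and 1.93 against 0.537 and 0.903. The groups did not overlap in these 3 genes, and none passed the adjusted threshold. The other 6 TALE members besides Meis2 had log2 differences between -0.94 and 0.51. Runx2, a relative of Runx1, was at 9.98, 44.4 and 26.6 FPKM against 7.76 and 8.09, a log2 difference of 1.42 ± 0.54 (limma adjusted p = 0.774), with the library labelled AE+Meis2 replicate 1 again nearest AE9a. The remaining 4 genes of the RUNX, CBFB and ETO families had log2 differences between -0.33 and 0.30.

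Corepressors and E proteins bound by the fusion had 12 of 17 members higher with a median log2 difference of 0.04. Ldb1, an adaptor of LMO2 complexes, was at 127, 103 and 68.7 FPKM against 176 and 152. Genes reported as induced by AML1-ETO had 7 of 14 members higher with a median of -0.01, and those reported as repressed 16 of 24 with a median of 0.26. The median over all members was 0.07. After rescaling the repressed list had a median of -0.11, against -0.28 over all members, so its median lay above theirs in both scalings. At an unadjusted p under 0.05, 0 of its 24 members were higher and 1 lower (4.17%), against 3.04% and 3.05% over all members. After rescaling 0 were higher and 3 lower, where 110 of all 11250 members were higher and 673 lower.

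Markers of the cell types that marrow can hold were described next. In bulk marrow fewer cells of a type and less RNA per cell cannot be told apart. Secondary and tertiary neutrophil granule genes were higher in 19 of 19 members with a median log2 difference of 0.56, but 0 passed an unadjusted p under 0.05 and 0 were free of overlap. Their summed FPKM ran from 3052 to 215569 in AE+Meis2 and from 7557 to 25722 in AE9a, and the median was 0.66 without the library labelled AE+Meis2 replicate 1, -0.15 without AE9a replicate 1 and -0.22 without both. Replicate 3 of AE+Meis2 held the highest sum. Primary granule genes were higher in 12 of 13 members, with a median of 0.95 with all libraries, 0.68 without the library labelled AE+Meis2 replicate 1, 0.43 without AE9a replicate 1 and 0.29 without both. Cst7, an inhibitor of granule proteases, was at 139, 154 and 126 FPKM against 36.7 and 95.3.

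Markers of T and natural killer cells, which interferon responses can accompany, were higher in 19 of 23 members, with a median log2 difference of 0.51. At an unadjusted p under 0.05, 3 were higher (13%, against 3.04% over all members) and 1 lower, and 8 were higher with no overlap (34.8%, against 10.5%). The median was 0.42 without the library labelled AE+Meis2 replicate 1, 0.43 without AE9a replicate 1 and 0.34 without both, with 2, 0 and 0 members higher at that p. Their summed FPKM was 200 to 378 in AE+Meis2 and 99.1 to 144 in AE9a, and 77.4 to 291 in AE9a+Meis2. None of the list was at 0 in all 5 libraries, and the defining genes Bcl11b, Klrb1c, Ncr1 and Prf1 did not reach the minimum level. Gzmb, a cytotoxic granule protease, was at 58.3, 6.78 and 2.88 FPKM against 0.840 and 1.33, and Cd8b1 at 3.79, 6.53 and 4.02 against 1.37 and 2.24. Gata3 was lower, at 1.45, 1.55 and 0.845 against 2.37 and 9.62. The part these cells play in the interferon result was not tested.

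Monocyte and macrophage genes had 11 of 23 members higher and a median log2 difference of -0.06, which was -0.20 without the library labelled AE+Meis2 replicate 1, 0.08 without AE9a replicate 1 and -0.01 without both. Fcgr1, an interferon-induced antibody receptor, was at 5.65, 8.16 and 3.48 FPKM against 2.06 and 1.00, whereas the chemokine receptor Ccr2 was at 23.3, 25.3 and 68.8 against 97.2 and 72.0 and the matrix protein Vcan at 7.55, 6.92 and 3.85 against 36.2 and 10.8. Fn1 was at 59.0, 80.8 and 57.1 against 99.8 and 223, and it has a listed 0 in each AE9a+Meis2 library, and these share in the estimate of its spread. Resident marrow macrophage genes had 7 of 14 members higher with a median log2 difference of 0.04. At an unadjusted p under 0.05, 1 was higher and 1 lower (7.14% each, against 3.04% and 3.05% over all members). The higher one was Siglec1, an interferon-induced macrophage receptor, at 4.09, 7.72 and 3.12 FPKM against 1.22 and 0.956. The lower one was Spic, at 6.37, 1.66 and 1.37 against 5.85 and 13.6. The list median was -0.42 without the library labelled AE+Meis2 replicate 1, -0.10 without AE9a replicate 1 and -0.59 without both.

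Erythroid genes were higher in 10 of 33 members, with a median log2 difference of -0.32 and none at an unadjusted p under 0.05 in either direction. The list depended on single libraries: the median was -0.81 with 6 lower at that p without the library labelled AE+Meis2 replicate 1, -0.86 with 0 without AE9a replicate 1, and -1.23 with 7 without both. The erythroid regulator Klf1 was at 14.1, 9.26 and 2.66 FPKM against 15.5 and 31.2. Mast cell and basophil genes had a median of -0.07 with 1 of 15 lower at an unadjusted p under 0.05 (6.67%, against 3.05% over all members). Here too the median moved. Without the library labelled AE+Meis2 replicate 1 it was -0.54, with 4 of 15 lower where 503 of 11175 members were. It was -1.01 without AE9a replicate 1 and -1.36 without both. Ms4a2, a subunit of the high-affinity IgE receptor, was at 226, 4.65 and 58.3 against 293 and 558, and the protease Cpa3 at 1875, 1005 and 849 against 359 and 715. Stem and progenitor markers were higher in 14 of 20 members with a median of 0.31, which was 0.23 without the library labelled AE+Meis2 replicate 1, -0.01 without AE9a replicate 1 and -0.04 without both. After rescaling 10 of 20 were higher and the median was 0.05, against -0.28 over all members. Ly6a (Sca-1), a stem cell surface marker that interferons also raise, was at 71.2, 19.8 and 21.5 FPKM against 6.76 and 10.5, and Cd48 at 104, 221 and 83 against 44.8 and 76.1. Hlf, among the 6 lower members, was at 2.01, 1.88 and 1.87 against 2.08 and 6.42. No marker of these lists passed the adjusted threshold.

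**Figure D5:**
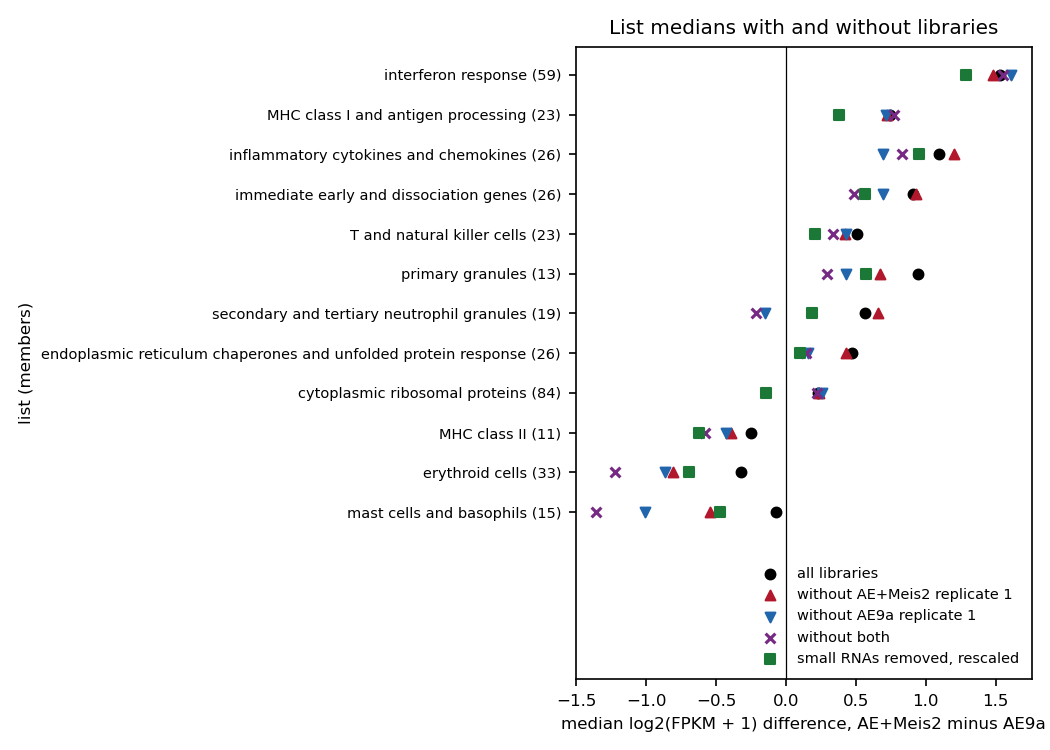
Median log2(FPKM + 1) difference (x axis) over the members of 12 lists with all libraries, without the library labelled AE+Meis2 replicate 1, without AE9a replicate 1, without both, and after removal of small RNAs with rescaling. The interferon median stays between 1.28 and 1.61, whereas the neutrophil granule median is -0.15 without AE9a replicate 1. Rescaling moves the median of all members from 0.07 to -0.28, and the list medians move down with it.

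Genes of cell growth and metabolism were compared last. Cytoplasmic ribosomal proteins were higher in 73 of 84 members with no overlap in 48 (57.1%, against 10.5% over all members). The median was 0.23 against 0.07 over all members. At an unadjusted p under 0.05 only 2 were higher (2.38%, against 3.04% over all members) and 0 lower. After rescaling 19 of 84 were higher, with 0 at that p in either direction. The median was then -0.14 against -0.28 over all members, so the sign follows the scaling while the list median lay above that of all members in both. Rps3 was at 977, 957 and 921 FPKM against 635 and 656. Oxidative phosphorylation genes had 42 of 84 members higher and a median of 0.00. Cox6b2, a testis-type subunit of cytochrome oxidase, stood out at 54.5, 90.1 and 24.7 against 8.51 and 12.2, a log2 difference of 2.18 ± 0.53 (limma adjusted p = 0.473). Glycolysis genes had a median of -0.01, cholesterol genes -0.11, mitosis genes 0.01, DNA replication genes -0.01 and MYC and nucleolar genes 0.18.

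Endoplasmic reticulum chaperones and unfolded protein response genes were higher in 22 of 26 members with a median log2 difference of 0.47, and 4 higher at an unadjusted p under 0.05 (15.4%, against 3.04% over all members). Dnajb9, a cochaperone of BiP, was at 14.8, 23.9 and 44.6 FPKM against 7.42 and 12.3. The stress factor Atf4 was at 186, 141 and 186 against 99.6 and 125. The list median was 0.10 after rescaling, against -0.28 over all members, and 0.16 without AE9a replicate 1. Of 23 p53 targets 15 were higher with a median of 0.42. Plk2, a stress-induced kinase, was at 1.93, 2.45 and 3.11 FPKM against 0.249 and 0.504, and Gadd45a, a DNA damage response gene, at 39.5, 35.4 and 70.3 against 5.46 and 25.6. The groups did not overlap in Dnajb9, Atf4, Plk2 and Gadd45a, but these were named for the smallest p in their lists, so that separation is no support. None of the 4 passed the adjusted threshold. Higher with no overlap were 5 of the 26 chaperone and unfolded protein response genes (19.2%) and 5 of the 23 p53 targets (21.7%), against 10.5% over all members.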

How the data were processed

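The data are 1 table of FPKM for 23997 genes in 8 libraries of mouse bone marrow RNA (TRIzol extraction, TruSeq preparation). The authors deposited these FPKM after using TopHat, Cufflinks and Cuffdiff with the build mm10, per the submitters' processing notes; of versions, settings and annotation nothing is given in the sources used here. FPKM are not counts, so depth is known only relatively and an exact 0 can be a failed estimate.

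Sample titles gave the groups and the replicate numbers. Symbols were matched to RefSeq (22500 by symbol, 1339 by synonym, 158 unmatched) to find protein-coding genes. Of the 20429 found, 9175 were under the minimum of 1 FPKM in 2 of the 5 libraries, and 4 were listed at 0 in a whole group. Values were taken to log2(FPKM + 1), a scale that understates the change of low genes. limma 3.58.1 in R 4.3.3 fitted all 8 libraries with 1 coefficient per group and a trend with intensity (prior degrees of freedom 2.28, residual 5) over the 12565 genes with at least 1 FPKM in 2 libraries. The Benjamini-Hochberg adjustment ran over these genes, with a threshold of 0.05. The fit was tested on simulated data. ± is the standard error of a log2 difference.

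Members and gene lists were chosen with earlier results of these data known. Lists are described by counts and medians, with no test. Rps6k kinases and pseudogenes were left out of the ribosomal list. The named genes were the transduced genes; in each direction up to 15 members past the threshold, filled up by smallest p, with groups that do not overlap and 5 FPKM or more on average where higher, leaving out predicted, sex-linked and antigen receptor genes and genes at 0 in a whole group; the members of each list with the smallest p; and the TALE, RUNX and SRC families. Genes outside this rule are said to have been chosen after their values were seen. Not every gene under the rule is reported here. Promoter windows came from RefSeq, GRCm38.p6. In all 19 alternatives were tried, 1 of them added after the data were seen. Plots were drawn with matplotlib 3.10.9 in Python 3.11.15, from tables made with pandas 2.3.3 and NumPy 2.4.6.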

Additional observations from a re-analysis of the deposited data

How the results depend on the processing

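The count of members called higher was 0 under every alternative except without AE+Meis2 replicate 3, where it was 5, so that leaving out 1 library gave 0 to 5. These 5 were 4 Y-linked genes and Igtp. The count called lower, 1 (Smpx), was 0 with a pseudocount of 0.1 or 0.5, without a filter, with a minimum of 5 FPKM, with median ratio scaling, after removal of small RNAs, with only the 5 libraries compared, with the replicate block, and without both the library labelled AE+Meis2 replicate 1 and AE9a replicate 1, an alternative chosen after seeing the data. It was 0 to 1 when 1 library was left out, and the cause was not tested. The interferon count at an unadjusted p under 0.05, 46, ranged from 31 to 48 over all alternatives. At that p the counts over all members also moved with only the 5 libraries compared (203 higher), without AE+Meis2 replicate 2 (547 higher), with a minimum of 5 FPKM (194 lower) and without AE9a replicate 2 (199 lower). The class I count of 8 ranged from 1 to 13. Of 73 genes named with values, 71 kept their sign throughout. Ifitm2 had a log2 difference of 0.058 without AE9a replicate 1 and ranged from -0.40 to 0.058 when 1 library was left out. Hoxb4 was at 0.051 with quantile normalization and ranged from -0.52 to 0.050, the latter without AE+Meis2 replicate 2. Deviations of same-numbered libraries from their group means had correlations from -0.05 to 0.41. Those between AE9a+Meis2 and AE9a were 0.41 for replicate 1 and 0.33 for replicate 2. Libraries of different numbers were not compared in this way, so these values cannot decide whether the numbers pair the samples. The block gave 0 members called higher and 0 lower. With 2 libraries in AE9a, 1 of them the shallowest, differences of low genes are the least certain.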

Other observations

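Genes outside the members gave these values, with no explanation. Of 380 long noncoding RNAs past the same filter, 6 were higher and 13 lower at an unadjusted p under 0.05, and 0 passed limma's adjusted threshold. Gm10046 measured 1.77, 0.230 and 0.679 FPKM in AE+Meis2, 4.12, 5.90 and 3.56 in AE9a+Meis2 and 10.4 and 14.6 in AE9a, a log2 difference of -2.90 ± 0.39 (limma adjusted p = 0.138). 4930562F07Rik measured 9.31, 25.5 and 22.8 FPKM in AE+Meis2 and 5.10 and 5.63 in AE9a.

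Genes listed at 0 in a whole group were left out of the comparison. S100a9, a neutrophil calcium-binding protein, had a listed 0 in each AE+Meis2 library and 2806 and 10900 FPKM in AE9a, although its partner S100a8 was at 11064 FPKM in the library labelled AE+Meis2 replicate 1. Svs5 was listed at 0 in AE+Meis2 and Gm5416 in AE9a. The microRNA gene Mir6386 measured 114, 279 and 110 FPKM in AE+Meis2 and has a listed 0 in both AE9a libraries.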
